A study of Mus musculus with 8 samples.

Results

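Broad NFI regions are stretches of at least 1500 bp that carry ChIP-seq peaks of the nuclear factor I family in granule neuron progenitors of the mouse cerebellum. The peaks of 6 libraries were merged wherever they overlapped by at least 1 bp, and the broad regions were selected from the merged regions by 2 widths, a merged width of at least 1500 bp and at least 1 single peak of at least 1000 bp. The rule kept 63 of 46070 regions. They lie on 19 chromosomes and cover 109750 bp in all. Because peak width chose them, the widths given below describe these regions and are not a finding, except where a library was left out of the choice.

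The cells came from cerebella at postnatal day 7, and NFIA, NFIB and NFIX were each immunoprecipitated in a CD1 library and in a library of a mixed background, which the labels compare with an outbred CD1. The mice carried no allele or treatment that the labels name, and the 2 input samples were not analysed here. The NFIA antibody was Abcam ab41851 and the NFIX antibody Sigma Aldrich SAB1401263, while the NFIB antibody is a Novus Biologicals product in the sample labels and a Sigma one in the design text, and the files do not settle which it was. No label ties the libraries to different animals or cultures, so a p-value over libraries reflects the spread among these samples alone, and that spread may be technical. Libraries are named by factor and background.

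NFI proteins are transcription factors that bind DNA as dimers of any pair of family members, through a palindrome whose arms read TTGGC and GCCAA with a 5-base spacer, and also bind single arms more weakly. The family has 4 genes in mammals, Nfia, Nfib, Nfic and Nfix. In the postnatal cerebellum, granule neuron progenitors divide in the external granular layer and then leave the cell cycle, migrate inward along Bergmann glia and mature, steps in which NFI proteins are known to take part.

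Sequence could be read where a member met an annotated transcript or a RefSeq promoter, and 4 stretches show how differently these regions carry the NFI arm. The first is an exon of the noncoding gene Gm47334 under the summits of all 6 libraries (GENCODE M21, chr9:9583370-9583564, plus strand). The second is an exon of the noncoding gene Gm4241, under summits of 4 libraries (chr13:83987823-83987991, plus strand). The others are promoters, from 250 bases before to 50 bases after a RefSeq gene start (GRCm38.p6), of Rbfox3 (chr11:118760992-118761291, minus strand) and of B3galt2 (chr1:143640447-143640746, plus strand). Each reads 5′ to 3′ on the strand given, and capitals mark TTGGC or GCCAA.
Gm47334 exon: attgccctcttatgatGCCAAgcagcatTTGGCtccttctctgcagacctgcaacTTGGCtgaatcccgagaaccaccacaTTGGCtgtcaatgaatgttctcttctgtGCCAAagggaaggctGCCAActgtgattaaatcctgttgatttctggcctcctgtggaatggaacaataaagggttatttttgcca
Gm4241 exon: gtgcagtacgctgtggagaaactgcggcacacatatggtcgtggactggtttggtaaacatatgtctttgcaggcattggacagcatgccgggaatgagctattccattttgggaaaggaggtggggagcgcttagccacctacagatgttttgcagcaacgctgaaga
Rbfox3 promoter: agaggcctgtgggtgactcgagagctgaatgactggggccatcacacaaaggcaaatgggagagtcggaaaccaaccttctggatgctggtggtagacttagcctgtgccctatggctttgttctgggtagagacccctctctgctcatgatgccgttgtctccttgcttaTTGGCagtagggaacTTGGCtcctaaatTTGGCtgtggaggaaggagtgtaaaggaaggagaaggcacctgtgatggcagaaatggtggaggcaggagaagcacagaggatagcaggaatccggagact
B3galt2 promoter: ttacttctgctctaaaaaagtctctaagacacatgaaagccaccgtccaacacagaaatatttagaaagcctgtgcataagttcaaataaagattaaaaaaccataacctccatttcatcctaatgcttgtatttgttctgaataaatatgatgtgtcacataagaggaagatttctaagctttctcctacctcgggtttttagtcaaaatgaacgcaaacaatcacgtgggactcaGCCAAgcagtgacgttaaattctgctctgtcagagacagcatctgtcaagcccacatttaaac

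The Gm47334 exon holds 6 arms, and 3 of them extend to the 6-base element TGCCAA, the reverse complement of TTGGCA. Peaks of all 6 libraries cover each arm, and the 6 summits lie between positions 9583405 and 9583445. The arm nearest to the summits (chr9:9583425-9583429) is 2 to 20 bp from the summit of every library. Of 2354 windows of 195 bp that lie within exons at the strongest summit of other regions, 0.0425% hold at least 6 arms on either strand, 7.48% at least 3 and 62.5% at least 1. No pair of arms in this exon forms the full palindrome. The exon is 1 of 3 members' summits that could be read in this way, so it stands for no other member.

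The Gm4241 exon holds no arm, although the summits of 4 libraries fall in it. In the Rbfox3 promoter the 3 arms lie 302 to 362 bp from the nearest summits, and only the wide NFIB Mixed peak reaches over them. At least 3 arms are found in 3.75% of the 32851 promoters of the RefSeq table, and at least 1 in 46.7%. The single arm of the B3galt2 promoter lies under peaks of 4 libraries and 51 bp from the nearest summit. Over the 11399 exonic bases of all members, 30 arms, 8 six-base elements and no full palindrome (TTGGC, 5 bases, GCCAA, both strands) were found. The ribosomal DNA region described below gave 3686 of these bases and 6 of the arms. The full palindrome occurs in 0.932% of 3113 shorter exonic windows at summits of other regions, and a shorter one (TGGC, 5 bases, GCCA) in 6.62% of them. Those windows are placed at summits and the bases of members are not, so the values are not alike. A match or its absence describes these letters only.

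The members had a median width of 1672 bp (1502 to 3697 bp), against 335 bp for the other regions. A peak of all 6 libraries was present in 48 members, of 5 libraries in 13 and of 4 libraries in 2. Among all regions 13.2% had peaks in all 6, but a region that gathers more peaks is also wider, so nothing is read from that difference. Peaks of at least 1000 bp came mostly from NFIB: 62 members held such a peak of NFIB, 18 of NFIA and 9 of NFIX, and 42 of NFIB alone. By library, the NFIB lists gave 54 (CD1) and 53 (Mixed) such members, the NFIA lists 9 and 16 and the NFIX lists 3 and 9.

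**Figure D1:**
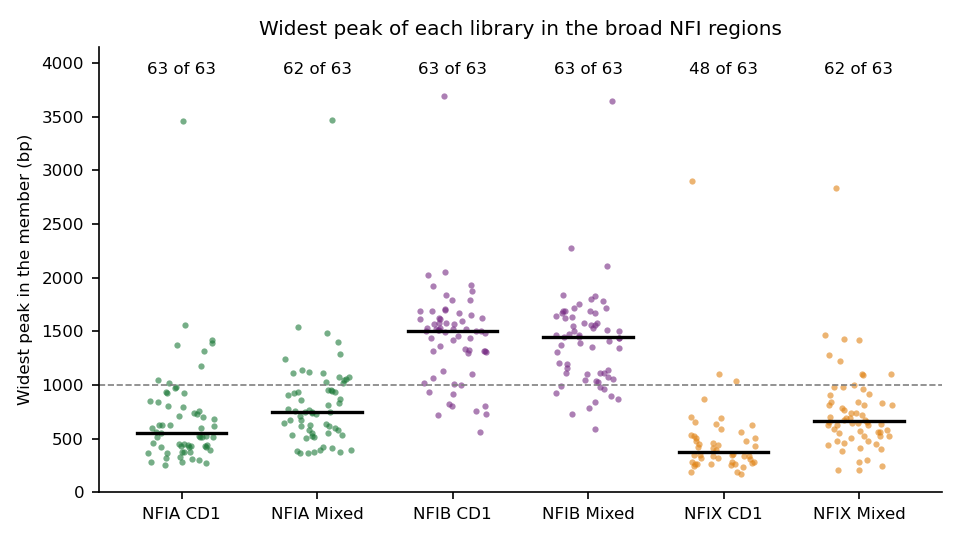
Width in bp of the widest peak of each library in each of the 63 members (points); the black bar is the median over members with a peak, the count above is the number of members with a peak, and the dashed line is 1000 bp. The NFIB medians of 1508 and 1447 bp lie above the line and the other 4 medians, 377.5 to 752.5 bp, below it; the point near the top of each column is the ribosomal DNA region.

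The widest peak of a member was 1508 bp at the median in NFIB CD1 (562 to 3694 bp) and 1447 bp in NFIB Mixed (593 to 3650 bp). In the NFIA libraries the medians were 550.0 bp in CD1 and 752.5 bp in Mixed. In the NFIX libraries they were 377.5 bp in CD1, where 15 members had no peak, and 663.5 bp in Mixed. NFIB CD1 was wider than NFIA CD1 and NFIX CD1 in 63 of 63 members, and in the Mixed libraries NFIB was wider than NFIA in 61 and wider than NFIX in 62. The rule itself favours this order, since 62 of the members held an NFIB peak of at least 1000 bp, so the counts are descriptive. The same order held in the lists as a whole, in which 1.22% and 1.05% of NFIB peaks reached 1000 bp, against 0.194% and 0.234% for NFIA and 0.0400% and 0.205% for NFIX. The number of peaks in a list went the same way, with 36431 and 33283 for NFIB, 16993 and 23541 for NFIA, and 7497 and 21443 for NFIX. Read totals were not used here, and the part of depth or of the antibody in these widths was not tested.

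Inside the members, both NFIB libraries mostly had a single peak, and the other libraries were divided. The rule favours this, since it asks for a long peak and 42 members had one in NFIB alone. The counts here describe the members, and no share over other regions was taken. NFIB CD1 had a single peak in 46 members and more than 1 in 17, and NFIB Mixed in 43 and 20. NFIA CD1 had a single peak in 29 members and more than 1 in 34, and NFIA Mixed in 23 and 39. NFIX CD1 had a single peak in 26 members and more than 1 in 22, and NFIX Mixed in 24 and 38. Summits were chained where neighbours lay at most 150 bp apart, so a whole chain can be longer. Chains with summits of at least 2 libraries, 117 in all, are here called shared summit positions. There was 1 such position in 18 members, 2 in 37, 3 in 7 and 4 in 1. Neighbouring positions were a median of 710 bp apart (206 to 2156 bp, 54 distances), and 37 of the 117 held a summit of all 6 libraries. In 40 members a single NFIB peak spanned at least 2 shared positions that another library listed as separate peaks.

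The intron of Pex5l, which codes for an auxiliary subunit of HCN channels, is such a member (chr3:33078535-33080323). NFIB CD1 listed it as 1 peak of 1789 bp. NFIA CD1, NFIX CD1 and NFIX Mixed each listed 3 peaks there, and NFIA Mixed and NFIB Mixed 2. The shared summit positions lay at 33078715, 33079320 and 33079895, with summits of 5, 4 and 5 libraries, 605 and 575 bp apart. Fold enrichment over local background, the authors' value at each summit, reached 15.5 to 28.5, which put the member between the 97.5th and 99.7th percentile of its list in all 6 libraries.

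Nfib itself carries a broad region in an intron (chr4:82494387-82496092), 10.1 kb downstream of its gene start. NFIB CD1 had 1 peak of 1706 bp, NFIA Mixed 1 peak of 1123 bp, NFIB Mixed 3 peaks of up to 791 bp, NFIA CD1 2 peaks of up to 391 bp, NFIX Mixed 2 of up to 458 bp and NFIX CD1 1 of 341 bp. A summit of all 6 libraries lay near 82495065 and a second position, with summits of 3 libraries, 744 bp further on. The highest folds were 8.07 to 15.9, from the 78.4th to the 96.1st percentile of their lists. Nfib was the only member of the NFI family with a broad region, although all 4 of the genes had some region assigned to them. A second broad region lay 449.4 kb from it in an intron of Frem1, and another 766.2 kb from it on the other side, upstream of Mpdz.

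**Figure D2:**
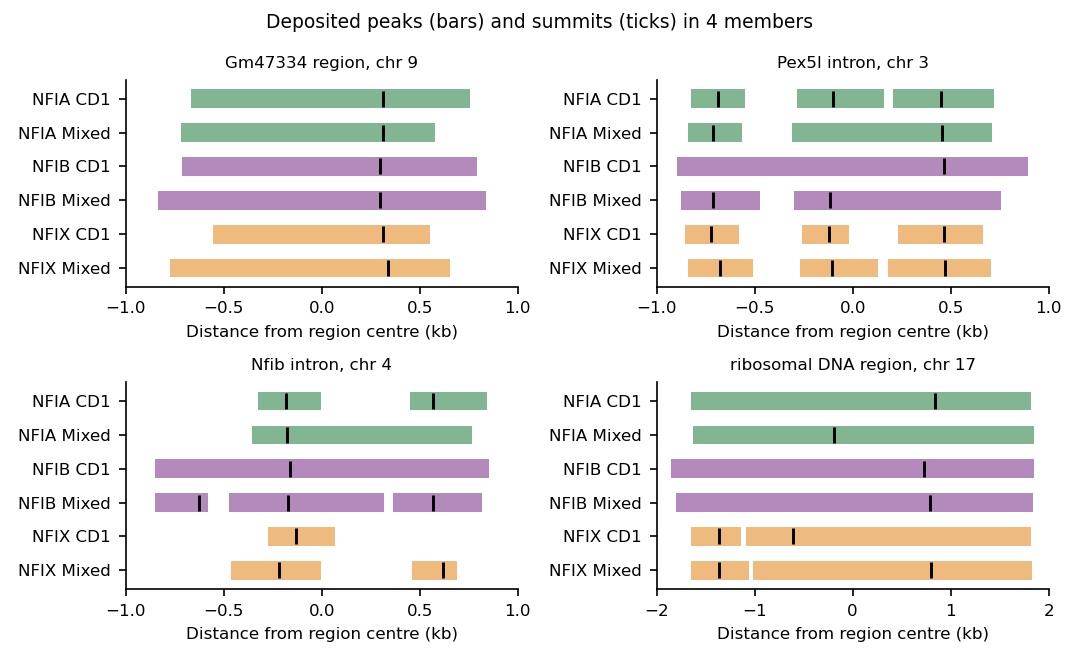
Deposited peaks (bars, coloured by factor) and their summits (black ticks) of the 6 libraries in 4 members, against distance from the centre of the merged region in kb. The Gm47334 region has 1 peak and 1 common summit position in each library, the Pex5l and Nfib introns have 1 long NFIB CD1 peak where other libraries list several, and the ribosomal DNA region, drawn on a wider axis, has wide peaks in all libraries, with a summit shared by 4 of them.

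In 3 members every library had a peak of at least 1000 bp. The first of them stands apart from the rest. It is the widest member (chr17:39843080-39846776, 3697 bp), and the annotation places on it a ribosomal RNA gene (CT010467.1), a noncoding gene (Gm26917) and, in RefSeq, the 18S-related sequence Rn18s-rs5. Ribosomal RNA genes are present in very many copies in the genome. Its widest peaks were 3462 and 3473 bp for NFIA, 3694 and 3650 bp for NFIB, and 2902 and 2840 bp for NFIX. Its highest folds were only 2.36 to 3.42, in the lowest 9.0% of every list. A summit of 4 libraries lay near 39845722 and one of the NFIX libraries near 39843566. What these peaks owe to copy number or to the mapping of repeats was not tested. Without it the median region width was still 1672 bp, the medians of the widest peaks in the libraries were 362 to 1508 bp, and the tested differences below kept their direction and side of the threshold.

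The region over Gm47334 (chr9:9582274-9583944), whose exon is printed above, had the highest mean percentile of fold of the 63, 99.7. Its widest peaks were 1423 and 1294 bp for NFIA, 1508 and 1671 bp for NFIB, and 1106 and 1425 bp for NFIX. Its highest folds were 18.95 to 35.5, at the 98.9th to 99.9th percentile of each list. It lies 344 kb upstream of the nearest protein-coding gene start, that of Arhgap42, a GTPase-activating protein. The third region of this kind (chr10:34903728-34905308) lies in an intron of the noncoding gene Gm18252, 421 kb from the start of Frk, a kinase of the Src family. Its widest peaks were 1035 to 1410 bp over the 6 libraries, and its highest folds 7.95 to 16.5.

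Below these, 2 members had a 1000 bp peak in every library except NFIX CD1, the shortest list. The intergenic region 61.2 kb from the start of Thbs4, a thrombospondin of the extracellular matrix (chr13:92732814-92734402), had widest peaks of 1392, 1538, 1511, 1579 and 1093 bp, and of 348 bp in NFIX CD1. The region 218.8 kb upstream of Tmtc4, which codes for a mannosyltransferase of the endoplasmic reticulum (chr14:123201284-123202864), had 1024, 1482, 1361, 1469 and 1419 bp, and 638 bp in NFIX CD1. The libraries other than NFIX CD1 thus did not fall into NFIB against the rest in these members. In the Tmtc4 region the widest peak of all was that of NFIA Mixed, 1 of only 2 members in which it was not an NFIB peak.

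The 3 members with a 1000 bp peak in 4 libraries lay in introns of genes of matrix and calcium channels and near a migration gene. The Frem1 intron (chr4:82945492-82947209; Frem1 is a basement membrane protein) had folds of 14.4 to 31.8 and widths of 1371 and 1398 bp for NFIA, 1618 and 1718 bp for NFIB, and 534 and 998 bp for NFIX. The region in an intron of Cacna2d3, an auxiliary subunit of voltage-gated calcium channels (chr14:29222033-29223704; the nearest start is that of Lrtm1), had widths of 660 to 1644 bp. The region 78.4 kb upstream of Astn2 (chr4:66482197-66483773) had 980 and 1114 bp for NFIA, 1313 and 1577 bp for NFIB, and 867 and 1102 bp for NFIX. Astn2 codes for an astrotactin, which takes part in the glia-guided migration of granule neurons. Each of the 6 libraries had a single peak at the Astn2 region, and its NFIA and NFIX summits lay at -400 to -427 bp from the centre of the region, where the NFIB summits lay at -154 and -93 bp.

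The other members with a 1000 bp peak in 3 libraries were 9 in number, and each was wide in both NFIB libraries. They lay near or in Marcks, an actin-binding substrate of protein kinase C (262.1 kb from its start), Stpg2, Timp3, an inhibitor of metalloproteinases (in an intron of the synapsin gene Syn3), Atp2b3, a calcium pump of the plasma membrane, Dand5, a secreted inhibitor of Nodal, Irx1, a homeodomain factor, Mllt3, a subunit of elongation complexes, Celf2, an RNA-binding splicing regulator, and Pex5l. The Celf2 intron (chr2:7038562-7040122) had widest peaks of 709 and 1078 bp for NFIA, 1023 and 1561 bp for NFIB, and 480 and 647 bp for NFIX. The Timp3 region (chr10:86358315-86360158) was wide in both NFIB libraries, at 1796 and 1837 bp, and in NFIX Mixed, at 1282 bp, while both NFIA libraries stayed at 524 and 521 bp. Over these 9 members the lowest fold ranged from 4.36 at Dand5 to 15.5 at Pex5l.

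The rest of the 25 highest-ranked members had a 1000 bp peak in 2 libraries, which were the NFIB libraries except at Adra1b, where they were NFIB Mixed and NFIX Mixed. The intron of Arhgap15, a GTPase-activating protein for Rac, had NFIB peaks of 1919 and 1116 bp. The region near Gk2, a glycerol kinase gene, had 2026 and 1827 bp, and its folds of up to 26.5 put it at the 95.8th percentile on average. The region 458.5 kb upstream of Plxna2, a semaphorin receptor, had 1519 and 1507 bp, and the intron of Elk3, an ETS factor, 1104 and 2107 bp. At Sipa1l2, a Rap GTPase-activating protein, at Tcf20, a transcriptional coregulator, and at Tcf4 the pattern was the same, with NFIB peaks of 1208 bp or more and the other libraries at 981 bp or less. Adra1b, an adrenergic receptor gene, lay 101.6 kb from its region, where NFIB CD1 reached 934 bp.

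Widths were not tied to one level of enrichment. The strongest summit of a member stood at a median percentile of 94.0 and 92.9 in the NFIB lists, 85.3 and 88.8 in the NFIA lists, and 75.1 and 88.1 in the NFIX lists. A member with several peaks in a library counts by the strongest, ranked among all single peaks of the list, which can raise its percentile. Some wide members had low folds. At Insm1 (chr2:146220730-146222552) NFIB peaks of 1691 and 1800 bp had folds of 2.75 and 4.42. Ppara, the second widest member (chr15:85669175-85672010, 2836 bp, in an intron of Lncppara), had folds of 3.96 to 6.26, from percentile 9.1 of its list in NFIX Mixed to percentile 60.5 in NFIB Mixed.

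**Figure D3:**
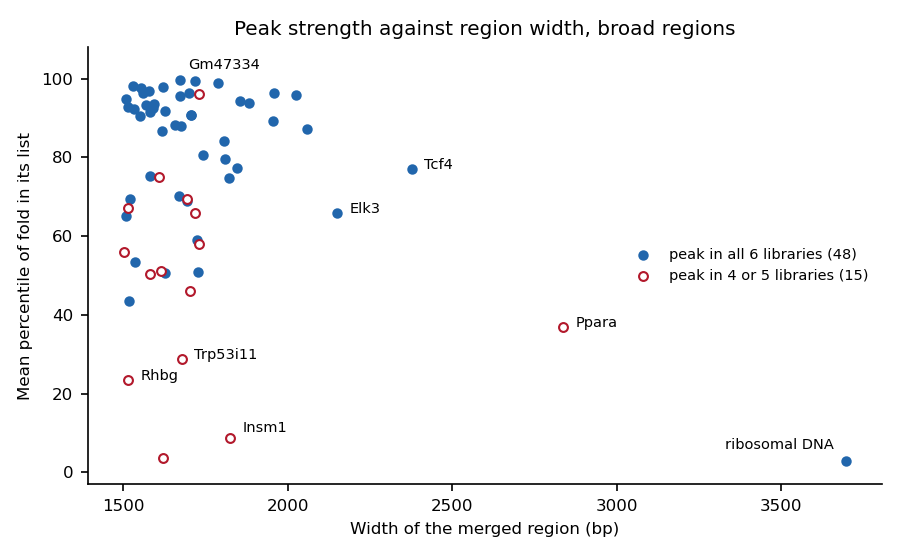
Mean percentile of a member's highest fold within each library's list (vertical axis) against the width of the merged region in bp (horizontal axis), for members with a peak in all 6 libraries (filled) and in 4 or 5 (open). Most members crowd at the upper left, while the ribosomal DNA and Insm1 regions sit at percentiles 2.83 and 8.64.

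At the thresholds, the members just above 1500 bp were those at Rbfox3 (1502 bp), Ifng (1507 bp), Irx1 (1509 bp), Plppr1 and Mpdz (1514 bp each). Just under it, with a peak of at least 1000 bp, were regions near Egr4 (1489 bp), Dpf3 (1487 bp), Mgat4a (1485 bp), Cadm1 (1484 bp) and Kcnj15 (1480 bp). The members with the shortest widest peak were those near Dhx40 (1029 bp), Pla2g4a (1227 bp), Nav3 (1302 bp), Ccdc191 (1310 bp) and Setbp1 (1316 bp). Of 68 regions of at least 1500 bp, 5 had no peak of 1000 bp, near Pxdc1 (934 bp), Creb1 (893 bp), Gm19935 (878 bp), Tenm4 (800 bp) and 1500009L16Rik (744 bp). In contrast, 513 regions with a peak of 1000 bp were narrower than 1500 bp, so the merged width set the number of members far more than the width of single peaks.

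Whether a broad region is also wide in a library that had no part in choosing it was asked by applying the rule to 5 lists and measuring the sixth. The left-out library had wider peaks in the broad regions in 6 of 6 cases. For NFIA CD1 the median widest peak was 550.0 bp in broad and 285 bp in other regions, and for NFIA Mixed it was 753 and 292 bp. For NFIB CD1 it was 1448 and 357 bp, and for NFIB Mixed 1352 and 345 bp, with 32 and 40 broad regions left once the library was removed. For NFIX CD1 it was 377.5 and 246 bp, and for NFIX Mixed 655 and 284 bp. The difference was 1.35 ± 0.56 on the log2 scale (SD, n = 6 libraries), 2.56-fold (exact two-sided sign-flip permutation, p = 0.0312, the smallest that 6 libraries can give; 0.0625 after Benjamini-Hochberg adjustment over 6 tests). It was 1.34 without the ribosomal DNA region.

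The left-out library also had higher folds in the broad regions, by 0.82 ± 0.34 on the log2 scale or 1.77-fold (SD, n = 6, 6 of 6 libraries, exact sign-flip p = 0.0312, adjusted 0.0625; 0.83 without the ribosomal DNA region). The medians were 9.09 against 5.97 in NFIA CD1, 14.9 against 6.47 in NFIB CD1 and 7.60 against 6.10 in NFIX CD1. A peak of the left-out library was present in 100% of broad regions for both NFIB libraries and NFIA CD1, in 98.4% for the Mixed libraries of NFIA and NFIX, and in 76.2% for NFIX CD1. In other regions the share was 15.7 to 74.2%, and the difference was 47.7 ± 15.8 points (SD, n = 6, 6 of 6, exact sign-flip p = 0.0312, adjusted 0.0625; 47.7 also without the ribosomal DNA region). Most other regions hold peaks of few libraries, and a wide region meets more peaks by its length. The widest peak and the highest fold were taken over all peaks that met a region. The comparison that follows matches the libraries only, not length or number of peaks, so it cannot take their part away. Against only other regions with a peak of every library used, the differences were 0.96 for width, 0.27 for fold and 5.09 points for presence, each at p = 0.0312 (exact sign-flip). The last of these rested on NFIX CD1, at 76.2% against 51.9% or 24.3 points. In the other libraries presence differed by 0.00633 to 4.07 points, with a mean of 1.25 ± 1.67 points without NFIX CD1 (SD, n = 5, exact sign-flip p = 0.0625, the smallest that 5 libraries allow).

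**Figure D4:**
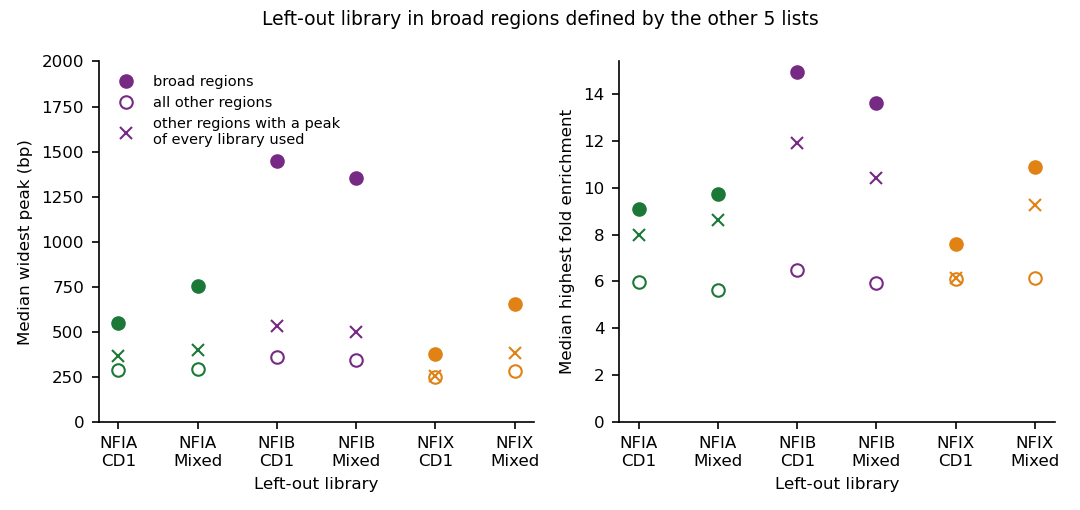
Median widest peak in bp (left) and median highest fold enrichment (right) of each left-out library, in broad regions chosen from the other 5 lists (filled circles), in all other regions (open circles) and in other regions with a peak of every library used (crosses). The filled circle is the highest of its column in all 12 columns.

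Few broad regions had a summit near a promoter, at a share close to that of all regions. A summit within 1 kb of a protein-coding gene start was found in 5 members, 7.94% (95% Wilson interval 3.44 to 17.3), against a background of 8.46% of all regions. Other regions with peaks in all 6 libraries had 2.46% (148 of 6014). Taking the strongest summit of each library, the promoter share in broad minus other regions was 3.73 points (CD1) and 1.02 points (Mixed) for NFIA, -0.64 and -0.20 for NFIB, and -0.30 and 2.52 for NFIX. The mean of 1.02 ± 1.77 points (SD, n = 6) did not pass the test (exact sign-flip p = 0.281, adjusted 0.422). It ranged from 0.48 points without NFIA CD1 to 2.90 points without NFIB CD1, and was 4.04 points against other regions with peaks in all libraries (exact sign-flip p = 0.0625). Its sign changed with the definition of a promoter and of a region, as given in the closing section.

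The promoter members described here are those of Tcf4, Insm1, Rbfox3 and B3galt2. A gene start here is the start of any protein-coding transcript, so it need not be the main start of the gene. The strongest summits at Tcf4 and Rbfox3 were classed as lying in introns of protein-coding genes. Tcf4 codes for an E protein, the dimer partner of neural basic helix-loop-helix factors. Its region (chr18:69499061-69501437, 2377 bp) had the most shared summit positions, 4, at distances of 499, 646 and 423 bp. NFIB Mixed had a peak of 2280 bp there and NFIB CD1 one of 1575 bp, while NFIA reached 367 and 870 bp and NFIX 340 and 555 bp.

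Insm1, a zinc-finger factor of neuronal progenitors, had a peak in 4 libraries, and outside NFIB these were 258 bp in NFIA CD1 and 206 bp in NFIX Mixed. Rbfox3 codes for NeuN, a splicing factor of maturing neurons. In the region over a start of this gene (chr11:118759719-118761220) all 5 libraries with a peak placed the summit between 118760753 and 118760786. Widths were 285 and 392 bp for NFIA, 1133 and 1502 bp for NFIB, and 413 bp for NFIX Mixed. B3galt2, a galactosyltransferase gene, had NFIB peaks of 1331 and 840 bp and no NFIX CD1 peak. Of these 4 regions, only that of Tcf4 had a peak in NFIX CD1.

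The promoters under NFIB peaks in the broad regions had a CpG ratio (observed over expected) that differed from other bound promoters by -0.21 in NFIB CD1 and -0.18 in NFIB Mixed, and those under NFIA peaks by 0.00453 and 0.0557. Over the 4 libraries the mean was -0.08 ± 0.13 (SD; exact sign-flip p = 0.5, with 0.125 the smallest possible). The share with TTGGCA on either strand differed by -11.3 ± 24.5 points (SD, n = 4, exact sign-flip p = 0.5). Each library had only 1 to 3 such promoters with a sequence and the NFIX libraries had none, so neither comparison could show a difference.

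By the position of their strongest summit, 27 members (42.9%) were intergenic, 24 (38.1%) lay in introns of protein-coding genes, 7 in introns of noncoding genes, 3 in noncoding exons and 2 in UTRs. None lay in a coding exon, which allows a share of up to 4.76%, while 2.32% of other regions did. Midpoints of members were a median of 65.0 kb from the nearest protein-coding gene start, against 46.3 kb for other regions and 70.1 kb for other regions with peaks in all 6 libraries. In each library the strongest summits of broad regions were further from gene starts than those of other regions, by 0.33 ± 0.13 on the log2 scale (SD, n = 6, 6 of 6, exact sign-flip p = 0.0312, a comparison added after the values were seen). The direction did not hold under other settings. Against other regions with peaks in all libraries the difference was -0.027 (exact sign-flip p = 0.688), against other regions at least as strong as the median broad region it was -0.52, and with a minimum region width of 2000 bp, which keeps 6 regions, it was -1.33 (exact sign-flip p = 0.0312 for each of the last pair). Within 50 kb to each side, members had a median of 5 other regions (0 to 22), against 3 both for other regions and for those with peaks in all 6 libraries.

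**Figure D5:**
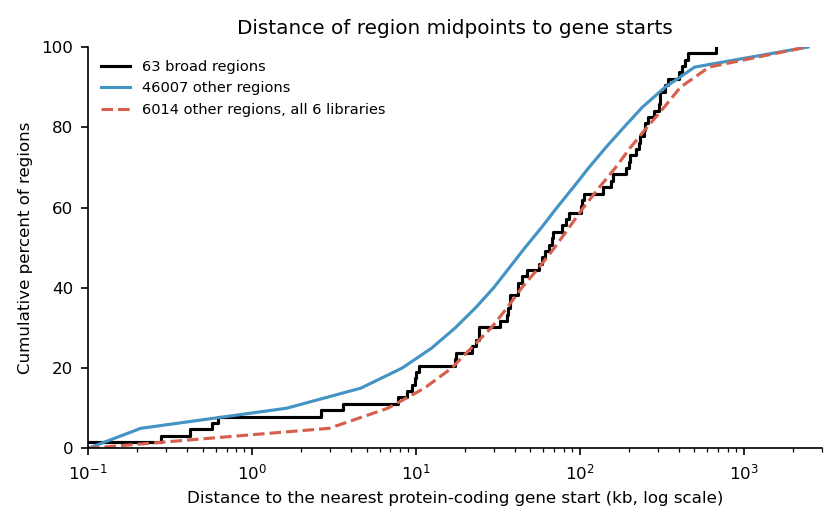
Cumulative percent of regions (vertical axis) against the distance of the region midpoint to the nearest protein-coding gene start in kb (log scale), for the 63 broad regions (black steps), the other regions (blue) and other regions with peaks in all 6 libraries (red dashes). The black steps lie close to the red line above 20 kb, with medians of 65.0 and 70.1 kb.

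A gene start within 100 kb of the midpoint, or inside the region, gave 37 members a protein-coding gene, 37 genes or 0.169% of 21910, and left 26 members with none. The assignment names a neighbour, not a target. Of 25 lists of genes of the cerebellum and of general pathways, 415 protein-coding genes in all, 7 genes (1.69%) had a broad region. These lists favour genes near NFI regions of any width, since 85.1% of their genes had some region assigned to them against 45.8% of all protein-coding genes.

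The listed genes were Nfib (1 of 4 of the NFI family), Insm1 (1 of 24 factors of the granule lineage), Tcf4 (1 of 21 genes of Notch signalling and of Hes, Id and E proteins), Rbfox3 (1 of 21 genes of granule neuron maturation), Celf2 (1 of 20 neuronal RNA-binding proteins), and Astn2 and Cxcl12 (2 of 23 genes of migration and polarity). Cxcl12 codes for the chemokine that holds granule progenitors near the meninges. Its region (chr6:117253685-117255235), 85.9 kb from the gene start, had NFIB peaks of 1532 and 1158 bp and 588 to 702 bp in the other libraries. An intron of Reln, the secreted guide of neuronal migration, held a further member (chr5:22092931-22094629), with NFIB CD1 at 1697 bp, NFIB Mixed at 896 bp and the others at 529 to 779 bp. An intron of Auts2, a gene of neuronal development, held the lowest-ranked member (chr5:132073749-132075328), where NFIB CD1 reached 1525 bp and the other libraries 593 bp or less.

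No gene of the lists of Sonic hedgehog signalling, Sox factors, cell cycle, cell adhesion, axon guidance, chromatin regulators, Wnt signalling, immediate early genes, housekeeping genes, cytoskeleton and long noncoding RNAs had a broad region assigned to it. Of the last list, only the 3 genes annotated as protein-coding could be assigned. The same was true of the 8 lists of cell type markers. All 12 markers of granule neuron progenitors had some region assigned to them, and so had all 12 of Bergmann glia and astrocytes, all 10 of cerebellar interneurons, 9 of 10 of Purkinje cells, 6 of 7 of choroid plexus and meninges, 6 of 8 of endothelial and mural cells, 5 of 10 of the oligodendrocyte lineage and 3 of 8 of microglia. The share over all protein-coding genes was the 45.8% given above. For a broad region that share was 0.169%, so a list without one says little. The lists do not hold every gene of a pathway. Wnt16 and Bub3, which no list held, had broad regions assigned to them, 82 and 68.4 kb from their starts. Both regions lay in introns of other genes, Cped1 for the region assigned to Wnt16 and Fgfr2 for that assigned to Bub3. Peaks near a gene do not measure its expression, so they do not check the cell type.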

How the data were processed

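ChIP-seq peak lists of 6 libraries of granule neuron progenitors, 1 list per library, were used. The submitters' processing notes name Bowtie2 2.2.6, SAMtools 1.4.1, MACS2 2.1.0 and the build mm10. The use of inputs as controls is not given in the sources used, nor is the threshold. The deposited fold enrichment is a ratio at the summit over local background, and the −log10 p and −log10 q values are from the authors' caller. The deposited score was not used. Folds and q-values describe peaks within a list only. Depth is unknown, since no read totals were used, and intervals on shares (95%, Wilson) and limits for a share of 0 (3 counts) cover counting error only.

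Peaks were merged over the lists and the width rule was applied with Python 3.11.15, pandas 2.3.3, numpy 2.4.6 and SciPy 1.17.1. In each library a region counted once, by its peak with the highest fold for positions and folds and by its widest peak for widths. Each library's difference between broad and other regions entered an exact two-sided sign-flip permutation test over libraries, with Benjamini-Hochberg adjustment over 6 tests. Scripts were tested on simulated data. Genes and exons came from GENCODE M21 and promoters from RefSeq (GRCm38.p6), both on the build of the files. No genome sequence was used, so intergenic and intronic members have no sequence here.

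Members were ranked by the number of libraries with a peak of 1000 bp or more, then by the mean width of the widest peak. The 25 highest-ranked, the 5 widest, the 5 on each side of each threshold and up to 4 genes per list were to be named; other members are named as promoter members or were chosen after their values were seen (Reln, Auts2). One promoter member is counted but not reported by name here. The members and the lists were chosen with earlier results of these data known. Alternatives varied the widths, the merging, the −log10 q minimum, the promoter distance and the libraries included.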

Additional observations from a re-analysis of the deposited data

Results flagged for a closer look

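The difference between broad and other regions had opposite signs in NFIA and NFIB for 3 measures, with both libraries of a factor on the same side in each. The promoter share of summits was higher in broad regions by a mean of 2.38 points in the NFIA libraries and by -0.42 points in the NFIB libraries, 2.80 points apart. The CpG ratio of bound promoters differed by 0.0301 in NFIA and by -0.19 in NFIB, 0.224 apart. The share of bound promoters with TTGGCA differed by -32.5 points in NFIA and by 9.87 points in NFIB, and the NFIA minus NFIB value was -42.3 points. The difference between the factors was not tested in any of the 3 cases. The promoter share rests on 4 or 5 promoter summits of broad regions per library, and the sequence measures on 1 and 2 promoters in NFIA and 3 in each NFIB library. NFIX gave no common sign for the promoter share and had no promoter sequence.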

How the results depend on the processing

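The 63 regions became 239 with a region minimum of 1200 bp, 6 with 2000 bp, and 32 without NFIB CD1 or 40 without NFIB Mixed (32 to 63 with each library left out). The other alternatives kept the number within 1.5 times. The promoter percent of members was 3.35% at 1200 bp, 16.7% at 2000 bp (of 6 regions), 11.1% with promoters of 5 kb, 17.5% with gene starts of all biotypes and 6.56 to 9.38% otherwise. The difference in promoter share reversed to -2.91 points at 1200 bp, -0.15 with an overlap of at least 100 bp and -2.06 with promoters of 5 kb. It was positive at p = 0.0312 before adjustment (exact sign-flip) with the 2000 bp minimum (11.8 points) and gene starts of all biotypes (6.17). The same p was reached against strong other regions, with at least the median fold of the broad regions (5.14). At 2000 bp, Tcf4 was the only promoter member among the 6 regions, so each library counted the same promoter region. The difference in promoter share was 0.48 to 2.90 points with each library left out and 4.04 points (p = 0.0625, exact sign-flip) against other regions in all libraries. Without the ribosomal DNA region all 6 tested differences and the distance kept direction and threshold. Held-out width, fold and presence kept direction and threshold under every alternative that kept 6 libraries. With a library left out they were 1.29 to 1.5, 0.75 to 0.93 and 44.01 to 47.3 points, at p = 0.0625, the smallest that 5 libraries allow (exact sign-flip). The CpG difference became 0.202 against strong other regions and 0.101 without NFIB Mixed (-0.44 to 0.101 with each library left out), and the TTGGCA difference 7.63 points with an overlap of 100 bp and 76.1 points, from 1 library, without NFIB CD1 (-26.6 to 76.1 points). The added distance difference became -1.33 at 2000 bp, -0.52 against strong other regions and -0.027 against other regions in all libraries. It missed the threshold with gene starts of all biotypes (0.22), with all peaks (0.22) and with each library left out (0.27 to 0.37). Where no count of regions shows it, the cause of these changes was not tested. The 37 assigned genes became 15 within 20 kb and 5 by a covered gene start. Each test used the difference between broad and other regions within a library, so it is paired by library. A pairing of libraries by background was not used. All alternatives against other regions in all libraries, without the ribosomal DNA region and with the peak of highest fold were chosen after seeing the data.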
